A study of Mus musculus with 1646 samples.

Results

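Fibroblasts labelled cluster 6 in the mouse colon, with the working name middle-apex fibroblasts, were compared with those labelled cluster 2, with the working name apex fibroblasts. Members are the cells whose label gives either cluster number, 45 cells of cluster 6 and the cells of cluster 2 counted by strain below, together 10.7% of the 1646 single cells of the series. The labels give cluster numbers and no zone names. All cells came from the colon of male mice aged 10 to 20 weeks, backcrossed to C57Bl6/J, and were sorted one per well as CD31-negative and reporter-positive or antibody-positive cells before SmartSeq2 sequencing, a full-length single-cell RNA method. Cluster 6 held 10 cells of the Acta2GFP strain, 26 of PdgfraGFP, 9 of PdgfrbGFP and 0 of Cspg4dsRED, and cluster 2 held 44, 55, 30 and 2 in the same order. Acta2GFP, PdgfrbGFP and Cspg4dsRED are transgenes in which the named promoter drives the fluorescent protein, whereas PdgfraGFP is a nuclear H2B-GFP placed in the Pdgfra gene itself. Elastase was added to the dissociation of Acta2GFP colons only. No untreated or wild-type control enters the comparison, and no label names the mouse a cell came from.

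For each cluster, the counts of all cells of a strain were added up where the strain had at least 10 cells in both clusters, and only 2 strains, Acta2GFP and PdgfraGFP, met that rule. The test therefore rested on 4 sums, 2 for each cluster, and its p-values measure the spread between strains and plates rather than between known animals. The sums held 2327711 and 9756627 counts for cluster 6 and 7484119 and 26240096 for cluster 2. Median counts per cell were 240348 in cluster 6 and 261785 in cluster 2, with medians of 4774 and 4627 genes. Within the test strains the gap in median counts ran in opposite directions, 224136 against 127711 in Acta2GFP and 252022 against 382902 in PdgfraGFP. The clusters were drawn from the same counts, so every test between them describes the 2 classes and is not independent evidence that they differ. Of all cells caught per strain, cluster 6 made up 11.5% in PdgfraGFP, 1.76% in Acta2GFP and 1.18% in PdgfrbGFP, shares that the reporter used for the sort can set.

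The stroma under the colonic epithelium is layered along the crypt. Fibroblasts near the luminal surface make bone morphogenetic proteins (BMPs), which favour differentiation, whereas fibroblasts at the crypt base supply WNT ligands, R-spondins and BMP antagonists that keep stem cells dividing. Acta2 encodes smooth muscle actin and is read as a sign of contractile fibroblasts, and Foxl1 encodes a transcription factor of sub-epithelial telocytes, the thin BMP-rich cells along the epithelium.

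Genes higher in cluster 6 than in cluster 2 included the secreted factors Bmp3, Wif1 and Cxcl12 and the matrix genes Aspn, Ogn and Lama2. Genes lower in cluster 6 included Agt, Plau, Lama5, Nrg1, Lef1 and Lgr5, all of which were near 0 there. In edgeR's quasi-likelihood test of 12676 genes, 17 genes were higher and 33 lower in cluster 6 at an adjusted p under 0.05, which is 0.134% and 0.26% of the genes tested, 0.394% together. At an unadjusted p under 0.05 the count was 1466, or 11.6%. Leaving out the Acta2GFP plate with 5 cells of cluster 6 and 4 of cluster 2 left 0 calls with edgeR (1419 genes at an unadjusted p under 0.05), and the 2 PdgfraGFP plates alone gave 0 calls (1118 genes at an unadjusted p under 0.05). In a fit over all fibroblast clusters with Acta2GFP left out, where the lone sum of each cluster is assumed to vary like the others, 18 of the 50 genes were called, and with PdgfraGFP left out 26 were. The strain block lost 5 of the 50 calls, namely Cox4i2, Kcns3, Mfap3l, Palmd and Sema4d (adjusted p from 0.052 to 0.065). The fit with 3 strains lost 4, namely Hmcn2, Lama2, Tbx3 and Timp3 (adjusted p from 0.054 to 0.51). The spread pooled over all fibroblast clusters kept 40 of the 50 and did not keep Bmp3 (adjusted p = 0.066), and limma kept 34 and did not keep Wif1 (adjusted p = 0.35) or Lgr5 (adjusted p = 0.19). None of the 50 changed sign in any of the 12 to 14 alternative fits in which each was tested.

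**Figure D1:**
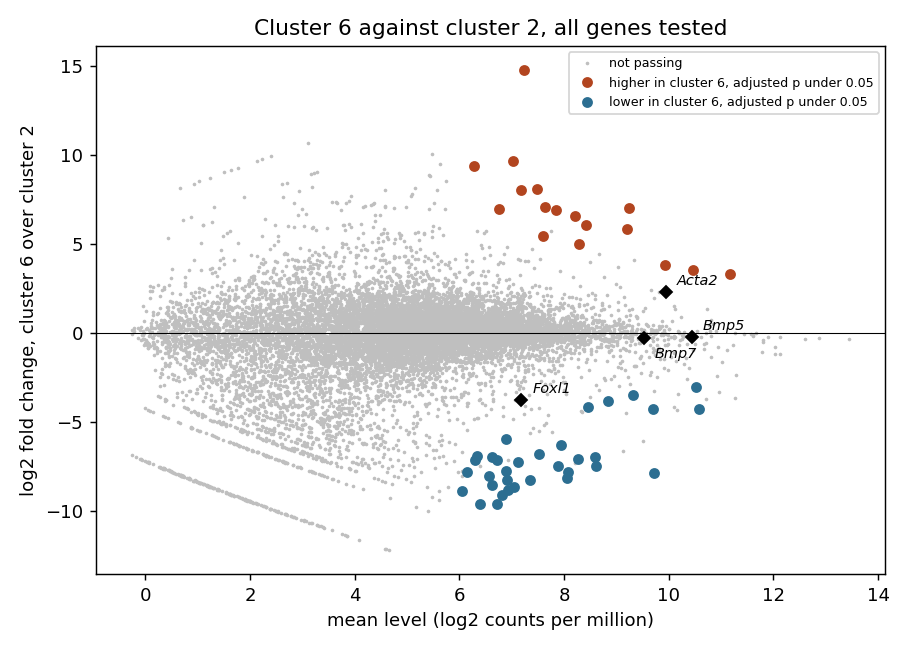
Each point is 1 of the 12676 genes tested, with its mean level as log2 CPM on the x axis and its log2 fold change of cluster 6 over cluster 2 on the y axis. The 17 genes called higher and 33 called lower lie at the upper and lower edges at middle to high level, whereas Bmp5 and Bmp7 (diamonds) sit near 0, Acta2 above it and Foxl1 below it without passing the test.

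The 4 genes given as markers of the middle-apex name were read first. Levels are means over cells of counts per 500000 gene counts, given for Acta2GFP, PdgfraGFP and PdgfrbGFP in that order. Acta2 stood at 1344, 473.5 and 1154 in cluster 6 and at 262.3, 84.6 and 142.9 in cluster 2. Its 3 cluster 6 values lay above its 3 cluster 2 values, with a log2 fold change of 2.30 ± 0.73 (SE), but the spread between strains was large and edgeR's adjusted p was 0.27. The call changed with the strain as a block (adjusted p = 0.041, in a fit that called 0.536% of genes) and with the 3 strains that had at least 5 cells (adjusted p = 0.046). In the PdgfraGFP plates the separation was uneven: on the plate with 12 cluster 6 cells Acta2 was 207.4 in cluster 6 against 131.5 in cluster 2, and on the plate with 14 it was 702 against 45.6. Among single cells Acta2 ran from 0 through a median of 651 to 3492 in cluster 6, and from 0 through 45.3 to 2050 in cluster 2.

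Bmp5 and Bmp7, secreted BMP ligands of surface fibroblasts, marked both classes and did not separate them. Bmp5 was 725, 511 and 827 in cluster 6 and 799, 595 and 656 in cluster 2, a log2 fold change of -0.24 ± 0.40 (SE, adjusted p = 0.97, edgeR). Bmp7 was 441.2, 259.2 and 397.96 in cluster 6 and 614, 204.6 and 375.9 in cluster 2, with overlapping groups and a log2 fold change of -0.29 ± 0.66 (SE, adjusted p = 0.99, edgeR). Foxl1 did not follow the working name middle-apex in the strains of the test: it was 8.88, 12.3 and 109.8 in cluster 6 and 169.97, 111.7 and 155.6 in cluster 2. All 3 cluster 6 values lay below the cluster 2 values. The order was not that of every plate, since on the PdgfrbGFP plate with 5 cells of cluster 6 and 3 of cluster 2 Foxl1 was 59.2 in cluster 6 and 0 in cluster 2, and on summed counts the log2 ratio of PdgfrbGFP was -0.03. Foxl1 had reads in 16 of the 45 cluster 6 cells, but its log2 fold change of -3.75 ± 0.81 (SE) did not pass (adjusted p = 0.16, edgeR). None of the 4 markers passed the test between the clusters, and Foxl1 was at 12.3 or less in cluster 6 of the 2 test strains, so the classes are called by their numbers here.

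Genes that the study names for colon fibroblasts were read next. Tnc, the matrix glycoprotein tenascin C, was 2092, 1973 and 1851 in cluster 2 and 353.4, 489 and 294.6 in cluster 6 (adjusted p = 0.073, edgeR, 0.041 with the strain block and 0.0019 with 3 strains). Pdgfra, the receptor whose gene carries the PdgfraGFP reporter, was 761, 452.6 and 990 in cluster 6 and 1284, 766 and 1076 in cluster 2 (adjusted p = 0.62, edgeR). Il1rl1, the receptor for interleukin 33, was 115.9, 391.1 and 302.2 in cluster 2 and 0, 3.57 and 1.00 in cluster 6 (adjusted p = 0.10, edgeR, 0.025 with the strain block), and Ptgs2, the inducible prostaglandin synthase, was 1328, 811 and 1139 against 26.5, 65.7 and 2.31 (adjusted p = 0.12, edgeR). Cd34, a marker of deeper stromal fibroblasts, was at or below 79.7 in every strain of both clusters, against 533 to 712 in cluster 1.

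**Figure D2:**
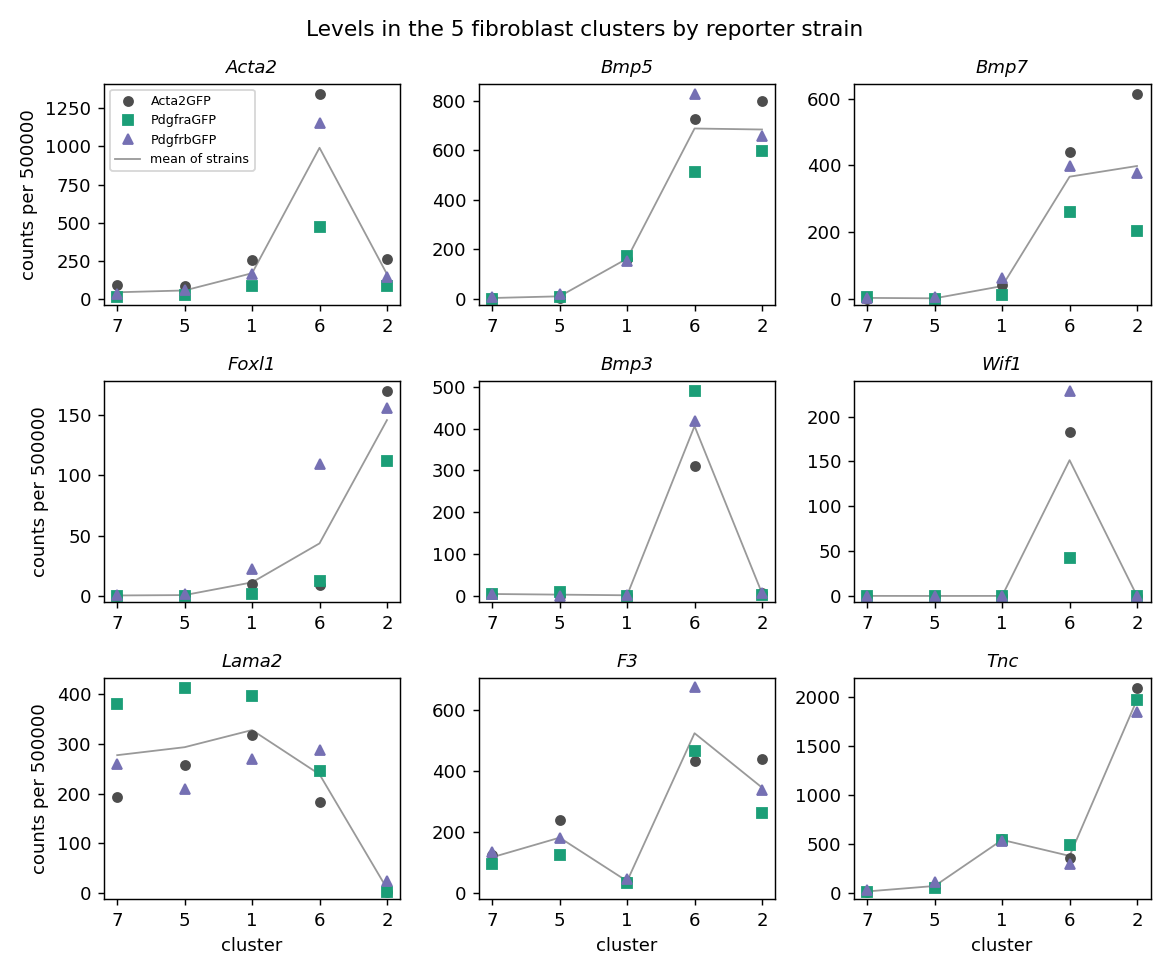
Mean counts per 500000 are plotted for 9 genes in fibroblast clusters 7, 5, 1, 6 and 2, with a point for each reporter strain with at least 5 cells and a line through the mean of the strains. Bmp5 and Bmp7 are high in clusters 6 and 2, Acta2, Bmp3 and Wif1 peak in cluster 6, Foxl1 and Tnc peak in cluster 2, and Lama2 is at 182.7 to 287.4 in cluster 6 but at 24.7 or less in cluster 2.

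Among the BMP ligands Bmp3, a divergent ligand that antagonises other BMPs, was called in the test. Bmp3 was 309.7, 489.8 and 417.8 in cluster 6 and 8.33, 3.51 and 8.47 in cluster 2, which is 399.8 ± 127.3 against 5.92 ± 3.41 over the 2 strains of the test (SD, n = 2). The groups were far apart, with a log2 fold change of 6.05 ± 0.51 (SE, adjusted p = 0.018, edgeR). With every cell thinned to 50000 counts, Bmp3 was detected in 38 of 45 cells of cluster 6 (84.4%, exact 95% interval 70.5 to 93.5), in 9.16% of cluster 2 cells (4.82 to 15.5) and in 1.43% of the cells of cluster 4, a class high in mural markers that should lack it. Without thinning the shares were 91.1%, 27.5% and 6.34%. Bmp3 was also at 9.23 or less in clusters 7, 5 and 1. Of 12 BMP ligands on the list, 9 were tested, and Bmp3 alone was called, where 0.134% of all genes tested were higher. The list median was -0.24 on the log2 scale against -0.02 over all genes. Bmp2 was 116.3, 115.5 and 108.7 in cluster 6 and 399.1, 422.4 and 549 in cluster 2 (log2 fold change -1.97 ± 0.49 SE, adjusted p = 0.24, edgeR, 0.028 with 3 strains). Bmp4 overlapped between the clusters, at 563 to 1017 in cluster 6 and 646 to 860 in cluster 2.

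None of the 7 tested BMP antagonists of 12, and none of the 15 tested receptors and response genes of 17, was called, with medians of -0.13 and -0.57. Fst, which encodes follistatin, was 0.15, 0.05 and 0.32 in cluster 6 and 69.2, 7.60 and 31.4 in cluster 2 (adjusted p = 0.165, edgeR, 0.039 with 3 strains). Chrd, which encodes chordin, was 140.98, 51.7 and 4.88 in cluster 6 and 6.49, 4.34 and 6.29 in cluster 2, an order that PdgfrbGFP did not share with the other strains. Twsg1, a modulator of chordin, was 319.99 to 400.3 in cluster 6 and 683 to 1022 in cluster 2 (adjusted p = 0.27, edgeR). Smad6 and Smad7, feedback inhibitors that BMP and TGF-beta signals induce, were at or below 1.20 in cluster 6 and at 18.5 to 30.7 in cluster 2 (adjusted p = 0.19 and 0.27, edgeR), and Smad6 was lower with 3 strains (adjusted p = 0.037, edgeR).

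WNT genes held calls in opposite directions. Wif1, a secreted protein that binds and blocks WNT ligands, had 2281 counts in the 2 cluster 6 sums and 0 in the 2 cluster 2 sums. Its level was 182.8, 42.9 and 228.6 in cluster 6, and in cluster 2 it was 0 in both test strains and 0.30 in PdgfrbGFP. Against a floor of 3 counts over the group it was at least 2122-fold higher in cluster 6 (adjusted p = 0.026, edgeR). Wif1 did not mark every cell: after thinning it was found in 13 of 45 cells of cluster 6 (28.9%, exact 95% interval 16.4 to 44.3) and in 0% of cluster 2 cells at that depth (exact 95% upper bound 2.78%), and in 0.714% of cluster 4. Without thinning it was found in 14 cells of cluster 6: 5 of the 10 of Acta2GFP, 4 of the 26 of PdgfraGFP and 5 of the 9 of PdgfrbGFP. All 14 also had Bmp3 and Acta2 reads, which 41 and 42 of the 45 cells of cluster 6 had. Wif1 was found without thinning in 2.29% of cluster 2 and 1.41% of cluster 4. The RefSeq promoter of Wif1 is printed here as that of the called gene with no read in the 2 cluster 2 sums of the test, from 250 bases before to 50 after the start, GRCm38.p6 chr10:121033754-121034053, plus strand, with capitals on CAAAG read on either strand, the core of the sites that TCF and LEF factors bind. That core is in 54% of 27025 promoters of this length, and its presence is a description of the letters and not of a bound site.

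Wif1: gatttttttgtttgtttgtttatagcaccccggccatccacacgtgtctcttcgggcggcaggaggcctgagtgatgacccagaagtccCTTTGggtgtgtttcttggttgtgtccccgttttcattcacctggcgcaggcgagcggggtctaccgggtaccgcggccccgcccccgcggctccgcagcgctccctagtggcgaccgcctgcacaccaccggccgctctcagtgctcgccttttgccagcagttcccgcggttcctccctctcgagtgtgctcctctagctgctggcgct

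Lef1 and Lgr5 went the other way. Lef1, a transcription factor of the WNT pathway, was 0.99, 2.18 and 0.09 in cluster 6 and 87.5, 161.9 and 91.96 in cluster 2 (log2 fold change -7.21 ± 0.74 SE, adjusted p = 0.021, edgeR). Lgr5, the R-spondin receptor known from intestinal stem cells, was 0.26, 3.39 and 0.33 in cluster 6 and 224.6, 297.9 and 341.1 in cluster 2 (log2 fold change -7.80 ± 0.91 SE, adjusted p = 0.026, edgeR). In cluster 2 Lgr5 was uneven from cell to cell, with a median of 1.74 and a highest value of 4213. Of 12 TCF/LEF factors and WNT response genes, 9 were tested, 0 were higher and 2 lower, where 0.134% and 0.26% of all genes tested were. The list median was -3.12 on the log2 scale, against -0.02 over all genes. Nkd2 and Tcf7, the next members by p, did not pass (adjusted p = 0.16 and 0.22, edgeR).

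Other WNT genes gave no call. Wnt5a, a non-canonical ligand of surface fibroblasts, was 226.03, 320.6 and 185.9 in cluster 6 and 477.4, 481.4 and 397.3 in cluster 2, without overlap but with an adjusted p of 0.53 (edgeR). Of 13 WNT ligands and R-spondins 5 were tested, and Wnt2, Wnt2b and the 4 R-spondins were among those too low to test. Fzd2 was 33.7, 99.3 and 87.97 in cluster 6 and 1.32, 0.12 and 11.3 in cluster 2 (adjusted p = 0.14, edgeR), and 0 of 11 tested Frizzled receptors and co-receptors were called, with a median of 1.26. Fzd1 was 36.2 to 107.2 in cluster 6 and 19.6 to 35.5 in cluster 2, Fzd4 was 13.2 or less in every strain, and Sfrp1, another secreted WNT inhibitor, was 2.41 to 19.8 against 22.2 to 60.1. Dkk3 overlapped between the clusters and was not called, at 467.96 to 707 in cluster 6 and 562 to 627 in cluster 2 (log2 fold change -0.02 ± 0.38 SE).

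The matrix of the 2 classes differed in named components. Aspn and Ogn encode asporin and osteoglycin, small leucine-rich proteoglycans of the interstitial matrix. Aspn was 614, 529.7 and 815 in cluster 6 and 5.05, 1.95 and 24.9 in cluster 2 (log2 fold change 7.02 ± 0.81 SE, adjusted p = 0.026, edgeR). Ogn was 1592, 1237 and 1321 in cluster 6 and 92.95, 95.1 and 186.6 in cluster 2 (log2 fold change 3.55 ± 0.43 SE, adjusted p = 0.026, edgeR), and every one of the 45 cluster 6 cells had Ogn reads, from 36.4 to 3347. These were the 2 calls among 23 tested proteoglycan and elastic fibre genes of 25, whose median was 0.95, where 0.134% of all genes tested were higher. Dcn, which encodes decorin, was 825, 515.7 and 1330 in cluster 6 and 141.3, 111.4 and 567 in cluster 2 (adjusted p = 0.13, edgeR, 0.041 with the strain block).

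Laminin chains moved in opposite directions. Lama2, the alpha chain of laminins around muscle and stromal cells, was 182.7, 246.5 and 287.4 in cluster 6 and 1.29, 1.42 and 24.7 in cluster 2 (log2 fold change 6.92 ± 0.66 SE, adjusted p = 0.021, edgeR). Lama5, the alpha chain of epithelial and vascular basement membranes, was 1.00, 7.59 and 0.90 in cluster 6 and 183.4, 647 and 373.6 in cluster 2 (log2 fold change -7.48 ± 0.98 SE, adjusted p = 0.033, edgeR). The range of Lama5 in cluster 2 reached from the lowest value in Acta2GFP to the highest in PdgfraGFP, and both lay far above every cluster 6 value. Lama2 and Lama5 were the 2 calls among 19 tested basement membrane genes of 24, where 0.134% of all genes tested were higher and 0.26% lower. The list median was -0.44. Nid1, which encodes nidogen, was 135.7 to 321.7 in cluster 6 and 576 to 638 in cluster 2 (adjusted p = 0.12, edgeR). Hmcn2, a large extracellular hemicentin, was 463.8, 478.4 and 298.4 in cluster 6 and 2.55, 2.48 and 60.6 in cluster 2 (adjusted p = 0.026, edgeR).

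Fibrillar and other interstitial collagens gave 0 calls among 17 tested of 20, with a median of -0.40. With 3 strains 1 of them, Col6a4, was lower (adjusted p = 0.035, edgeR), where 1.03% of all genes tested in that fit were lower. Col6a1 and Col6a3, chains of collagen VI, were 1215 to 1468 and 157.4 to 367.5 in cluster 6 and 2408 to 3551 and 753 to 929 in cluster 2, without overlap (adjusted p = 0.28 and 0.17, edgeR). Col1a1 was 1401, 1779 and 1777 in cluster 6 and 1238, 3040 and 2596 in cluster 2, which overlap. Timp3, a matrix-bound inhibitor of metalloproteinases, was 342.8, 335.3 and 191.4 in cluster 6 and 14.6, 6.58 and 63.2 in cluster 2 (log2 fold change 5.02 ± 0.62 SE, adjusted p = 0.026, edgeR). It was the only call among 16 tested metalloproteinases and inhibitors, where 0.134% of all genes tested were higher. The PdgfrbGFP values of Timp3 were the closest pair of the 3 strains. Plau, the urokinase that activates plasminogen, was 2.96, 6.71 and 0.16 in cluster 6 and 330.1, 382.5 and 428.4 in cluster 2 (log2 fold change -6.93 ± 0.53 SE, adjusted p = 0.013, edgeR).

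**Figure D3:**
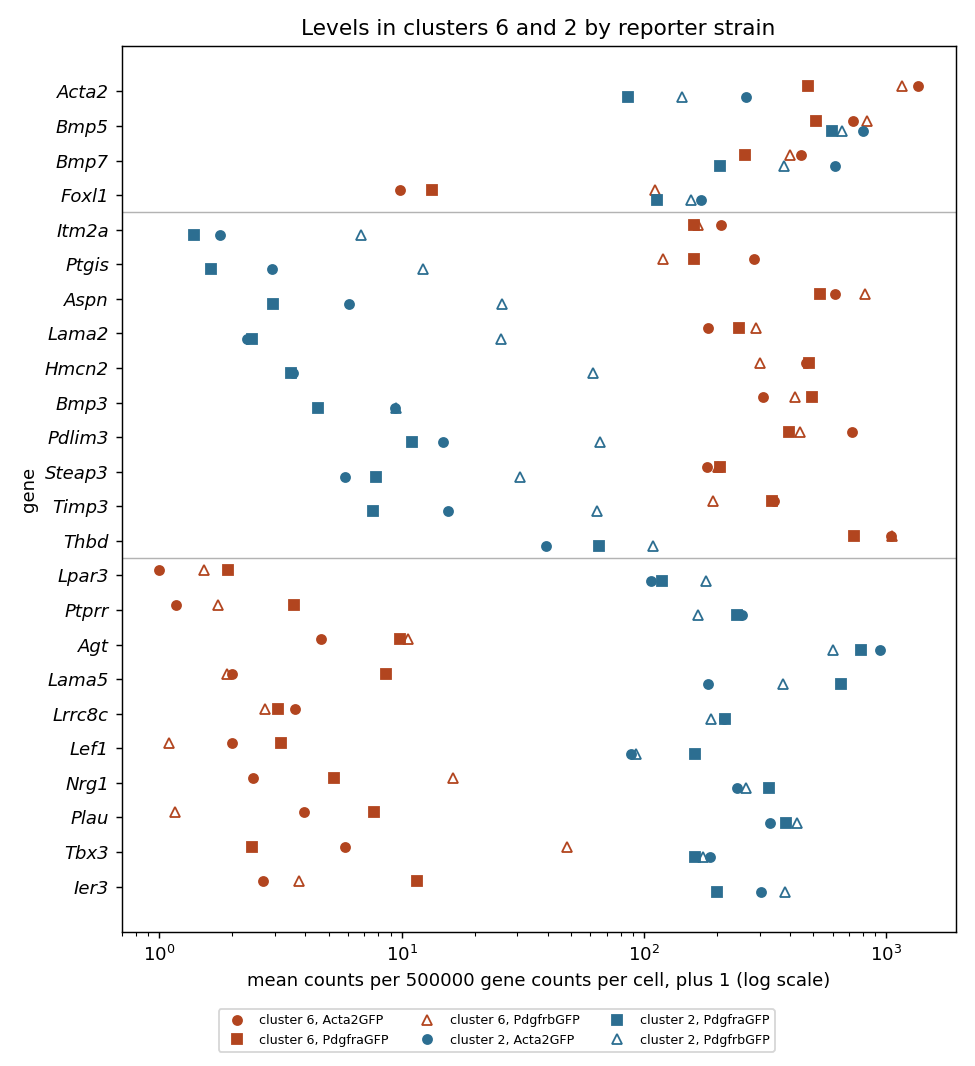
Mean counts per 500000 plus 1 on a log scale are shown for the 4 markers of the middle-apex name (upper block), the 10 genes highest in cluster 6 (middle) and the 10 lowest (lower block) by the naming rule, with filled symbols for the strains of the test and open triangles for PdgfrbGFP. For the 20 called genes the 3 values of cluster 6 do not overlap the 3 of cluster 2, as for 8.36% of all tested genes on the higher and 12.9% on the lower side, and the open triangles of cluster 2 lie to the right of the filled ones for all 10 genes in the middle block.

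Among secreted signals and their enzymes, the chemokine, prostaglandin and EGF family lists held 1 call each. Over all genes tested, 0.134% were higher and 0.26% lower. Cxcl12, the chemokine that retains leukocytes and progenitors, was 2438, 1882 and 1598 in cluster 6 and 189.1, 201.7 and 283.7 in cluster 2 (log2 fold change 3.29 ± 0.43 SE, adjusted p = 0.033, edgeR), and no cluster 6 cell was below 620.2. It was the only call among 16 tested chemokines and cytokines of 23. Ptgis, the synthase of prostacyclin, was 282.98, 160.4 and 118.9 in cluster 6 and 1.91, 0.63 and 11.2 in cluster 2 (log2 fold change 7.08 ± 0.98 SE, adjusted p = 0.037, edgeR). Ptgs1, the constitutive cyclooxygenase upstream of it, was 190.5, 71.5 and 219.3 in cluster 6 and 614, 591 and 645 in cluster 2 (adjusted p = 0.16, edgeR, 0.020 with 3 strains). Ptges, the synthase of prostaglandin E, was 27.2 to 135.2 against 216.3 to 311.4, and the list had 1 call of 11 tested and a median of -0.26.

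Nrg1, a ligand of ERBB receptors on epithelial cells, was 1.44, 4.25 and 15.3 in cluster 6 and 240.6, 325.8 and 262.2 in cluster 2 (log2 fold change -7.09 ± 0.75 SE, adjusted p = 0.021, edgeR). It was the only call among 7 tested EGF family genes of 14. Ereg, another EGF family ligand, was 32.9, 88.6 and 280.1 in cluster 6 and 206.4, 171.8 and 330.7 in cluster 2, which overlap. Agt, which encodes angiotensinogen, was 3.62, 8.85 and 9.56 in cluster 6 and 942.5, 781.8 and 601.2 in cluster 2, with the lowest adjusted p of the 33 (log2 fold change -7.85 ± 0.52 SE, adjusted p = 0.0095, edgeR). After thinning, Agt was found in 100% of cluster 2 cells, 44.4% of cluster 6, 35.6% of cluster 1 and 19.3% of cluster 4. Its detection in cluster 6 thus lay closer to clusters 1 and 4 than to cluster 2. A high Agt level was not confined to cluster 2, since cluster 8, a non-fibroblast class, stood at 554.6 in the 1 strain read. Fgf7, an epithelial growth factor, was 37.7, 4.54 and 1.53 in cluster 6 and 549, 411.4 and 435.8 in cluster 2 (adjusted p = 0.27, edgeR, 0.065 with 3 strains).

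Hedgehog (8 tested), FGF (9), TGF-beta (13), IGF (9) and Notch (6) genes gave 0 calls, with medians of 0.07, -1.34, -1.11, -0.79 and -1.51. Igfbp4, a binding protein of insulin-like growth factors, came nearest at 25.5, 17.5 and 55.2 against 432.3, 265.9 and 487 (adjusted p = 0.053, edgeR, 0.042 with the strain block). Tgfbi, a matrix protein that TGF-beta induces, was 522, 120.2 and 40.4 in cluster 6 and 2084, 1348 and 1372 in cluster 2 (adjusted p = 0.26, edgeR, 0.039 with the strain block). With 3 strains Igfbp4 and Igfbp6 were lower (adjusted p = 0.025 and 0.048, edgeR). Of 25 tested patterning transcription factors of 35, Tbx3 was the only call, where 0.26% of all genes tested were lower. It was 4.81, 1.42 and 47.1 in cluster 6 and 185.3, 161.7 and 173.8 in cluster 2 (log2 fold change -6.81 ± 0.94 SE, adjusted p = 0.037, edgeR). Tbx3 lost its call when PdgfrbGFP entered the fit (adjusted p = 0.51, edgeR). Its PdgfrbGFP value came from the plate with 5 cluster 6 cells, at 83.7 in cluster 6 and 3.98 in cluster 2. On the plate with 3 it was 1.44 in cluster 6 and 223.6 in cluster 2. Over all cells of cluster 6 the median of Tbx3 was 0 and the highest level 418.5, and 2.22% of them had at least 100 counts. Sox6, a transcription factor of the SOX family, was 51.7, 252.8 and 309.8 in cluster 6 and 13.7, 18.1 and 23.9 in cluster 2 (adjusted p = 0.27, edgeR, 0.082 with 3 strains). The PdgfrbGFP value of Sox6 came from the plate with 5 cluster 6 cells, at 557, while on the plate with 3 it was 1.40 in cluster 6 and 39.9 in cluster 2.

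Smooth muscle contractile genes gave 0 calls among 21 tested of 23, with a median of 0.76 and with 17 members above 0 and 4 below. Tagln, the actin-binding protein transgelin, was 338.98, 101.5 and 298.7 in cluster 6 and 7.74, 0.58 and 13.3 in cluster 2 (log2 fold change 5.73 ± 1.40 SE, adjusted p = 0.22, edgeR, 0.030 with the strain block). Tagln was not in every cell: 33 of 45 cells of cluster 6 had reads, made up of all 10 of Acta2GFP, 14 of the 26 of PdgfraGFP and all 9 of PdgfrbGFP. Myl9, a regulatory myosin light chain, was 587, 285.8 and 415.4 in cluster 6 and 148.4, 126.8 and 120.8 in cluster 2 (adjusted p = 0.28, edgeR), while Vcl, which encodes vinculin, had a log2 fold change of -1.68 (adjusted p = 0.20, edgeR). Pdlim3, a PDZ and LIM protein of actin filaments that is outside that list, was 722 and 393.7 in Acta2GFP and PdgfraGFP of cluster 6, with PdgfrbGFP between them, and 13.8, 10.0 and 64.6 in cluster 2 (log2 fold change 5.82 ± 0.53 SE, adjusted p = 0.021, edgeR). The PdgfrbGFP value of Pdlim3 rested on the plate with 3 cluster 6 cells, at 822, while on the plate with 5 it was 101.5 in cluster 6 and 113.5 in cluster 2. Myh11, the smooth muscle myosin heavy chain, stood at 15.2 to 86.2 in cluster 6 and 16.8 to 46.6 in cluster 2, and Actg2 and Des were at 18.9 or less in both. The 23 contractile genes summed to 3424 to 5932 in cluster 6, 2837 to 3189 in cluster 2 and 16296 to 21934 in cluster 3, a class high in these genes. On the PdgfraGFP plate with 12 cluster 6 cells the order turned, with 2965 in cluster 6 and 3292 in cluster 2. The PdgfrbGFP plate with 3 cluster 2 cells had 3877 in that cluster and 5237 in cluster 6, so the order held there.

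Of the remaining genes named by rule, Thbd, the endothelial and stromal anticoagulant receptor thrombomodulin, was 1040, 735 and 1053 in cluster 6 and 38.5, 63.9 and 107.8 in cluster 2 (log2 fold change 3.82 ± 0.44 SE, adjusted p = 0.026, edgeR). Itm2a, a membrane protein, was 207.01, 160.1 and 165.3 against 0.78, 0.38 and 5.80, and Steap3, a ferrireductase, was 180.5, 204.8 and 199.97 against 4.82, 6.81 and 29.8. On the lower side Lpar3, a receptor for lysophosphatidic acid, was at 0.92 or less in cluster 6 and at 105.7, 117.5 and 178.8 in cluster 2. Ptprr, a tyrosine phosphatase, was at 2.59 or less against 165.8 to 251.3, and Lrrc8c, a subunit of volume-regulated anion channels, was 2.61, 2.09 and 1.72 against 213.5, 215.2 and 187.7. Lrrc8c varied little between strains in either cluster.

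The other 23 called genes fall outside the naming rule and were picked for mention after their values were seen. Higher in cluster 6 were Aldh1a2, which makes retinoic acid (210.8, 31.4 and 177.9 against 3.38 or less), Gpr20 (202.9, 43.7 and 38.1 against 1.40 or less), Palmd (107.6, 54.5 and 7.69 against 0.30 or less) and Lims2 (74.5 to 109.6 against 0.41 to 6.62). Palmd was carried mostly by the strains of the test. Many cluster 6 cells had no reads of these genes: over the 45 cells of cluster 6 the median level was 0.99 for Aldh1a2 and 0 for Gpr20 and Palmd, with reads in 24, 15 and 16 cells, and 2.09 for Lims2, with reads in 27. Lower were the ion channel genes Trpa1 (0.88 or less against 117.4 to 122.8), Kcns3 (1.25 or less against 52.7 to 129.6) and Ano2 (0.57 or less against 80.5 to 170.1), and the immediate early gene Arc (1.85 or less against 98.8 to 239.1). The same direction held for Insc, Sema4d, Cd300e, Nxf7, Paqr5, Mfap3l, Baiap2, Bcr, Nqo1, Ociad2, Tcim, Cox4i2, Cdh13, Nfkbia and Junb.

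Cells switch on immediate early genes within minutes of a stimulus and also during tissue dissociation, and 5 of the 16 on the list were lower in cluster 6. All 16 were tested, 0 were higher, the 5 lower were Nr4a1, Ier3, Zfp36, Socs3 and Junb, where 0.26% of all genes tested were lower, and the list median was -3.53 on the log2 scale. Nr4a1, a nuclear receptor, was 64.5, 108.1 and 22.1 in cluster 6 and 1945, 1046 and 1449 in cluster 2 (log2 fold change -4.26 ± 0.51 SE, adjusted p = 0.026, edgeR). Junb, an AP-1 subunit, was 124.9, 222.1 and 90.2 in cluster 6 and 1638, 1219 and 1343 in cluster 2 (log2 fold change -3.02 ± 0.40 SE, adjusted p = 0.034, edgeR). Zfp36, which destabilises mRNAs, was 34.1, 70.9 and 26.6 against 1111, 640.3 and 479.7 (adjusted p = 0.026, edgeR), and Ier3 was 10.5 or less against 199.2 to 378.8. Fos, also of AP-1, was 115.2, 264.3 and 62.9 against 3148, 1798 and 1576 and did not pass (adjusted p = 0.055, edgeR, 0.0037 with 3 strains). With 3 strains, 13 of the 16 were lower, where 0.381% of genes were higher and 1.03% lower.

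Summed over the 16 genes, cluster 6 was at 924 to 2666 on its 6 plates and cluster 2 at 6484 to 19224 on the same plates, without overlap. Cluster 1 of the same 6 plates lay at 1053 to 2597, and at 8312 on a PdgfrbGFP plate where cluster 2 was at 17536 and cluster 6 had a single cell. Over all plates of a strain, the non-fibroblast clusters 3, 8 and 4 were at 14320, 9658 and 5649 in Acta2GFP, where cluster 2 was at 18647. In PdgfrbGFP they were at 8457, 7995 and 2398, where cluster 2 was at 12881. Whether handling of the cells had a part in the difference was not tested. Among the 33 genes lower in cluster 6, 28 are outside the list, but these include Arc and Nfkbia, which are also known to respond quickly to stimuli.

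**Figure D4:**
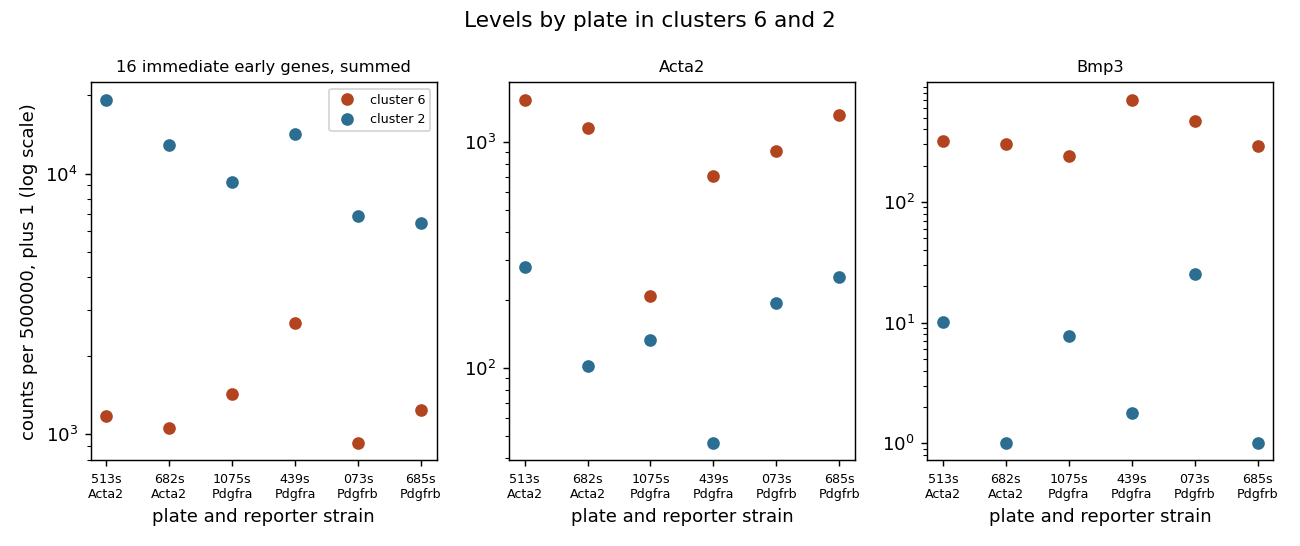
Counts per 500000 plus 1 on a log scale are shown for the 6 plates with at least 3 cells of both clusters, for the 16 immediate early genes summed (left), Acta2 (middle) and Bmp3 (right). Cluster 2 lies above cluster 6 on all 6 plates for the immediate early genes and below it for Acta2 and Bmp3, with the smallest Acta2 gap on the PdgfraGFP plate with 12 cluster 6 cells (207.4 against 131.5).

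The promoters of 2 of the called immediate early genes are shown because a search found signal-response motifs in them. They span 250 bases before to 50 after the RefSeq start in GRCm38.p6. Capitals in Nr4a1, chr15:101266596-101266895, plus strand, mark TGACG on either strand, the core of the site that cyclic AMP-responsive factors bind, and capitals in Zfp36, chr7:28379179-28379478, minus strand, mark a CArG box, the site that serum response factor binds.

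Nr4a1: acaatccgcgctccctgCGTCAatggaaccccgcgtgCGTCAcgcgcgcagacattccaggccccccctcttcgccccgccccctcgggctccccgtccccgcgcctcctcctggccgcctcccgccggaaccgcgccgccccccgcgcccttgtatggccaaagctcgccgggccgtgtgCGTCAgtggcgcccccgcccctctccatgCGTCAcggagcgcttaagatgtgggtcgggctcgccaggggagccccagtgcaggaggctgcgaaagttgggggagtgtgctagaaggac

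Zfp36: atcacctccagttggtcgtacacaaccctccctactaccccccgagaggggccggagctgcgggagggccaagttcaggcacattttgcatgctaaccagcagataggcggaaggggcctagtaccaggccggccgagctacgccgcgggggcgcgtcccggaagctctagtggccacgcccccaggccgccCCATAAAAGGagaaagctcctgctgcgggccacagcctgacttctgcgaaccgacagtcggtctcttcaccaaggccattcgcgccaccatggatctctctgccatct

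The window of Nr4a1 held 4 TGACG cores, and that of Zfp36 held 1 CArG box. TGACG is in 21% of the 27025 promoters, and in 8 of the 35 called genes of both directions that the table holds. The CArG box is in 1.57% of the 27025 and in 3 of the 35. These are matches of letters and say nothing of binding in these cells.

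PdgfrbGFP, with 9 cells of cluster 6 and 30 of cluster 2, was left out of the test by its cell number and gave the same measure in other cells, although the cluster labels were drawn from those cells too. All 17 genes called higher were also higher there and all 33 called lower were lower, against 56.6% of the 11912 tested genes with at least 10 counts in that strain. A log2 ratio of at least 1 in the same direction was met by 49 of the 50, against 39.5% of the 11912. The log2 ratios in PdgfrbGFP ran from 1.10 for Timp3 to 10.3 for Wif1 among the 17, and from -11.7 for Arc to -0.95 for Tbx3 among the 33. The median ratio was 4.05 for the 17 and -7.23 for the 33. In cluster 2, PdgfrbGFP cells had more Hmcn2, Timp3, Lama2, Pdlim3 and Aspn than cluster 2 cells of the other strains, and their median of 7864 genes per cell was above the 4291 and 4406 there. Whether that greater number of genes had a part in those levels was not tested.

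**Figure D5:**
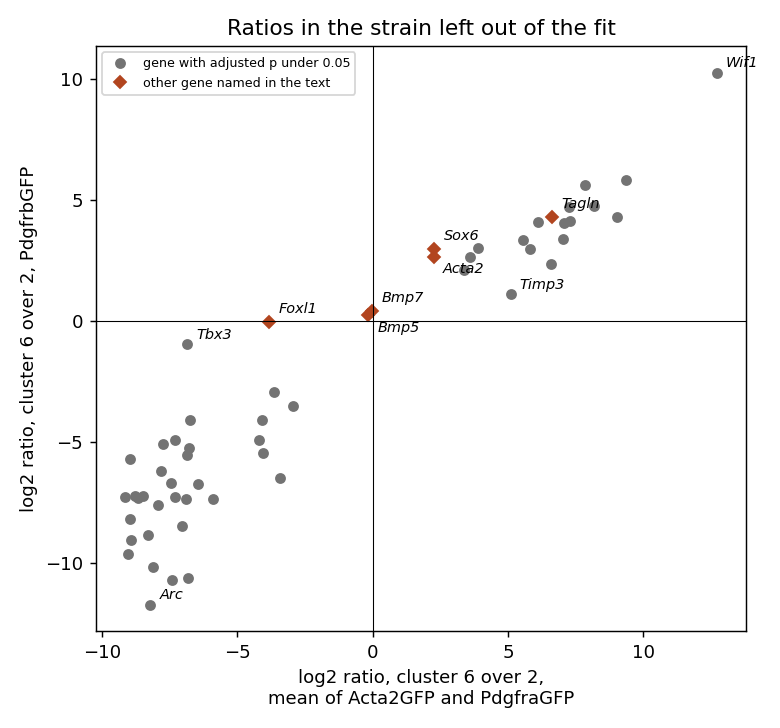
Each point is a gene, with the mean log2 ratio of cluster 6 over cluster 2 in Acta2GFP and PdgfraGFP on the x axis and the ratio in PdgfrbGFP on the y axis, computed on CPM with 0.5 counts added. The 50 called genes (grey) fall in the lower left and upper right only, while Bmp5 and Bmp7 sit near 0 and Foxl1 is at -0.03 in PdgfrbGFP.

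The 50 genes were called on the cells of 4 of the 6 plates read next, so their direction on those 4 follows from the choice of genes, and only the 2 PdgfrbGFP plates lie outside the test. Of the 6 plates with at least 3 cells of both clusters, 15 of the 17 higher genes and 28 of the 33 lower genes kept their direction on every plate. On the PdgfrbGFP plate with 5 cells of cluster 6 and 3 of cluster 2, 16 of 17 and 29 of 33 did, the lowest of the 6 plates, against 46.4% and 62% of all tested genes of that sign. On the PdgfrbGFP plate with 3 cells of cluster 6 and 10 of cluster 2, 17 of 17 and 32 of 33 did, against 48.4% and 59.6%. These directions were taken from counts summed over the cells of a plate, with 0.5 counts added. By the mean level per cell, Pdlim3 (101.5 in cluster 6 and 113.5 in cluster 2) and Ptgis (2.15 and 2.81) were in the opposite order on the plate with 5 and 3 cells. On the PdgfraGFP plate with 12 cells of cluster 6, 16 of 17 and 33 of 33 did, against 71.3% and 73.4% of all tested genes of that sign. The fit on plates with the plate as a block called 0.549% of genes higher and 1.19% lower, and 48 of the 50 were among them.

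Cluster 1, the most numerous fibroblast class, served to show which features cluster 6 shares with another neighbour, and its comparison uses the same cluster 6 sums. Of 14247 genes, 1 was higher and 8 were lower in cluster 6, or 0.00702% and 0.0562% (0.0632% together). Of these 9 calls limma kept 2, the fits without Acta2GFP and without PdgfraGFP kept 4 and 3, and the PdgfraGFP plates alone kept 0. F3, which encodes the coagulation initiator tissue factor, was 432.1, 465.3 and 674 in cluster 6, 38.1, 33.1 and 45.7 in cluster 1 and 439.1, 261.5 and 336.5 in cluster 2 (log2 fold change against cluster 1 of 3.77 ± 0.33 SE, adjusted p = 0.039, edgeR, 0.052 with limma and 0.080 on the PdgfraGFP plates). The values of clusters 6 and 2 overlapped, and those of cluster 1 lay below both. The genes lower in cluster 6 were Osr1, Adh1, Lepr, Sulf2, C1qtnf3, Igfbp4, Abi3bp and Htra3. Lepr, the leptin receptor, was 2.06, 2.31 and 8.23 in cluster 6, 1.08, 0.54 and 15.1 in cluster 2 and 240.6, 170.1 and 198.4 in cluster 1. Adh1, an alcohol dehydrogenase that acts on retinol, was 9.45 or less in cluster 6, 13.9 or less in cluster 2 and 154.98 to 215.4 in cluster 1.

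The genes that separated cluster 6 from cluster 2 took different values in cluster 1. Lama2 (269.3 to 395.5), Timp3 (467.8 to 473.4), Hmcn2 (220.2 to 383.6), Aspn (249.7 to 384.9) and Cxcl12 (1154 to 1751) were also present in cluster 1, with log2 fold changes of -0.35, -0.73, 0.78, 1.16 and 0.77 that did not pass. The cluster 6 values of Aspn lay above those of cluster 1, and those of Timp3 below. Bmp3 was 2.93, 0.32 and 2.30 in cluster 1, with a log2 fold change of 8.15 ± 1.19 (SE, adjusted p = 0.12, edgeR), and Wif1 was 0.28 or less. Ogn was 224.6, 230.3 and 247.9 in cluster 1, below the 1237 of the lowest cluster 6 strain, with a log2 fold change of 2.64 ± 0.31 (SE, adjusted p = 0.062, edgeR). Agt, Plau, Lama5, Nrg1, Lef1 and Lgr5 were at 82.5 or less in every strain of cluster 1.

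Markers of other cell types were read by their defining genes and by their sums. Ptprc (leukocytes) was 0 in cluster 6 and at 0.12 or less in cluster 2, Cdh5 (endothelium) and Sox10 (glia) were at 0.77 or less in both, and Epcam (epithelium) was at 10.8 in PdgfrbGFP of cluster 6 and 1.04 or less elsewhere. The 8 endothelial markers summed to 18.04 to 39.3 in cluster 6 and 13.6 to 46.9 in cluster 2. The 8 immune markers summed to 0.11, 27.8 and 6.20 in cluster 6, with 60.3 on the PdgfraGFP plate with 12 cluster 6 cells, and to 1.86, 9.77 and 11.98 in cluster 2, with 19.6 on that plate. The 8 epithelial markers summed to 166.4 in PdgfrbGFP of cluster 6, to 24.01 and 21.2 in its other strains and to 5.59 to 22.6 in cluster 2. Of the 3 markers of interstitial cells of Cajal, Kit was at 1.497 or less in both clusters, but the 3 summed to 65.99 to 137.6 in cluster 6 and 125.1 to 226.9 in cluster 2, which came from Ano1 and Etv1, and 0 of the 2 tested were called. The 9 mural markers summed to 212.3 to 367.2 in cluster 6, 35.9 to 50.5 in cluster 2 and 5817 in PdgfrbGFP cells of cluster 4, and the 5 tested had a median of 2.39 with 0 calls. With 3 strains 2 of them, Abcc9 and Kcnj8, were higher in cluster 6 (adjusted p = 0.023 and 0.035, edgeR), where 0.381% of all genes tested in that fit were higher. Abcc9 and Kcnj8, the subunits of the mural potassium channel, made up most of that sum at 90.05 or more and 85.1 to 186.6 in cluster 6, whereas Rgs5 was at 11.4 or less and Notch3 at 0.76 or less. Whether cells or RNA of mural type had a part in the Acta2 and Tagln levels was not tested.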

How the data were processed

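Single cells of mouse colon were sequenced by SmartSeq2. Per the labels and the study's methods, the authors aligned reads to GRCm38/mm10 with TopHat2, counted them per gene with featureCounts of Subread and removed low-quality cells and cells with very many genes, and they deposited raw counts for each gene and cell. A step removing doublets with samtools is named but not explained. The largest count of a gene in any cell exceeded 2 times its exon length for 1 of 30583 genes. If reads at the same position were removed, which is not stated, counts of short, abundant genes such as Acta2, Junb and Fos have a ceiling and their fold changes would be understated. Rows of 92 spike-in RNAs, 1.36% of counts, stayed out of library sizes and tests.

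Cells were grouped by the cluster number in their labels. The members and gene lists were chosen with earlier results of these data known. Counts were summed per cluster and strain where both clusters had at least 10 cells, and tested with edgeR 4.0.16 in R 4.3.3 (TMM, filterByExpr, quasi-likelihood test, Benjamini-Hochberg adjustment, threshold 0.05). The SE beside a log2 fold change is its absolute value divided by the square root of the test's F statistic, and was not estimated separately. The steps were tested on simulated data. There edgeR without a block missed most of the changed genes and made the fewest false calls. The block recovered more of the changed genes and made more false calls, and DESeq2 made more false calls than true ones. The larger shares of DESeq2 are therefore not read as better sensitivity, and a gene that was not called is not shown to be alike. The simulated sums carried no strain effect, so they cannot tell whether calls made only with the strain block in the real data are false. Alternatives used DESeq2 1.42.0, limma 3.58.1, library totals, no filter, a strain block, 3 strains, plates, thinning to 50000 counts and leaving out each strain. A count of the calls without the 16 immediate early genes, with no new fit, was chosen after seeing the data. So was a fit with Acta2GFP from only 1 of its 2 plates. Sums of the same strain shared deviations only weakly (r = 0.0791 over 2 pairs), so the strain was no block in the test. Intervals are exact and cover counting error only.

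Genes were named if they were the 4 markers, the 10 of each direction with the largest fold change among those called with at least 100 counts in 30% of cells of the higher cluster and 1 direction in both strains (5 against cluster 1), up to 4 members of a list by p, or genes the study names for colon fibroblasts.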

Additional observations from a re-analysis of the deposited data

How the results depend on the processing

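As a share of the genes tested, 0.134% were higher and 0.26% lower in cluster 6 than in cluster 2. These became 2.12% and 3.88% with DESeq2, 0.504% and 1.07% without the filter, 0.381% and 1.03% with 3 strains, 0.587% and 1.01% on plates, 0.549% and 1.19% on plates with the replicate block, 0.651% and 1.17% with the spread pooled over all fibroblast clusters, 0.158% and 0.394% with limma, and 0.235% and 0.498% with thinned cells. They were 0% with the PdgfraGFP plates only (edgeR) and with 1 Acta2GFP plate left out, a fit chosen after seeing the data. The replicate block by strain gave 0.205% and 0.331%. Leaving out a strain gave 0.497% to 0.548% higher and 0.828% to 1.12% lower. Against cluster 1, 0.00702% and 0.0562% became 1.68% and 4.89% with DESeq2, 0.014% and 0.0983% with library totals, 0.539% and 0.774% without the filter, 0.484% and 0.414% with the strain block, 0.467% and 0.304% with 3 strains, 0.997% and 2.16% on plates, 0.564% and 1.28% with the plate block, 0.0249% and 0.0499% on PdgfraGFP plates, 0.202% and 0.58% with pooled spread, 0.0351% and 0.0281% with limma, 0.2% and 0.304% thinned, and 0.0146% to 0.0295% higher and 0.165% to 0.266% lower without a strain. Genes called lower that also met the study's size and detection criteria went from 16 to 28 when detection was counted per 500000. The cause was not tested. The median log2 fold change of all genes moved to -0.28 without the filter, -0.26 with the strain block, 0.18 on plates, -0.37 with the plate block and -0.18 with 1 Acta2GFP plate left out. Same-strain sums hold cells sorted on the same plates, and whether they share animals is not given in the labels. The 10 cluster 6 cells of Acta2GFP limit what could be seen of low genes.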

Other observations

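Several genes higher in cluster 6 than in cluster 2 were also present in the non-fibroblast clusters. Aspn was 252.6 to 376.4 in cluster 3 and 449.3 to 614 in cluster 4, and Timp3 was 834.5 to 1663 and 985 to 2128 there. Pdlim3 was 474.5 to 509 in cluster 3 and 184.03 to 199.96 in cluster 4. In the 1 strain read of cluster 8, Aspn was 466.06, Timp3 343.4 and Pdlim3 823.9, the last above every strain of cluster 6. Bmp3 was at 2.58 or less in clusters 3, 4 and 8, while Acta2 was 2280 to 4392 in cluster 3, 771 to 1323 in cluster 4 and 5114 in cluster 8.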
